A study of Mus musculus with 2 samples.

Results

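Phox2a, Hand1, Hand2, Gata2, Gata3, Insm1, Isl1 and Sox11 encode 8 transcription factors of the sympathoadrenal lineage, the branch of the neural crest that gives rise to chromaffin cells and sympathetic neurons. They were taken by name from the 21911 protein-coding genes of GENCODE M21 and described through open chromatin in the mouse adrenal gland. DNase-seq had been carried out on whole glands: nuclei are exposed to the enzyme DNase I, which cuts DNA where it is accessible, and the released fragments are sequenced. The labels gave 1 group of 2 biological replicates, and each replicate was 1 library from a pool of 6 gland biosamples. The mice were males of the F1 hybrid B6CASTF1/J, from C57BL/6J and CAST/EiJ parents, aged 8 to 10 months, and there was no treatment or control group. Both pools carry the same donor identifier, so the spread between them may be technical in part. In a whole gland, fewer chromaffin cells and less open chromatin per chromaffin cell cannot be told apart.

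Chromaffin cells make and release adrenaline and noradrenaline from the adrenal medulla, which is enclosed by the much larger steroid-producing cortex. PHOX2 homeodomain proteins, HAND basic helix-loop-helix proteins, GATA2 and GATA3 zinc finger proteins and the repressor INSM1 act together in this lineage and are known to drive genes of catecholamine synthesis such as Th and Dbh. HAND factors bind E-boxes, GATA factors bind the letters GATA, and GATA2 and GATA3 also act in endothelium, blood and lymphoid cells.

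The promoters of 7 of the 8 genes held a DNase I peak in both pools, and Sox11 held none in either. A promoter here is the interval within 1 kb of a transcription start site (TSS), and a peak is an interval in which the authors found cutting raised. The same was true of 61.9% of all protein-coding genes. Replicate 1 alone gave 7 of 8 against 62.9% of all genes, and replicate 2 alone gave 7 of 8 against 65.3%. Footprints, the short stretches protected from cutting inside open DNA, lay in the promoters of the same 7 genes in both pools, beside 59.7% of all genes.

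The open promoters were weak. Peak height is the authors' signal, whose scaling is not stated, and a promoter's signal is that of its strongest peak. The median over the 7 open genes was 1.22 in replicate 1 and 1.43 in replicate 2, while that over all open promoters was 3.002 and 4.07. By the mean of both pools, Gata3 stood at percentile 54.3 among open promoters, and the other 6 genes lay between percentiles 8.96 and 31.4.

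**Figure D1:**
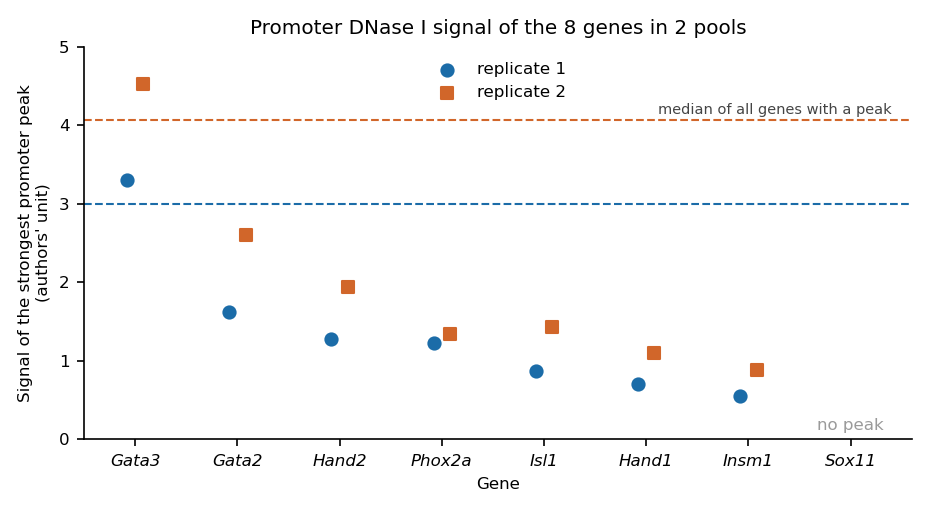
Signal of the strongest promoter peak of each gene (authors' unit, y axis) in replicate 1 (circles) and replicate 2 (squares), with dashed lines at each pool's median over all protein-coding genes that have a peak. Gata3 alone exceeds the line of its pool, Insm1 is the lowest at 0.550 and 0.887, and Sox11 has no peak.

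The sequences below show the open DNA on which the description of each gene turns. They are C57BL/6J reference sequence (GRCm38, also called mm10), written 5′ to 3′ on the strand of the gene, and bases in capitals lie in a footprint of at least 1 pool. Bases annotated as UTR were left out, and longer stretches were cut to their central 300 bases, so a stretch can be shorter than its peak. The Gata2 upstream stretch was cut in this way from the region chr6:88189601-88189960. The labelled tissue is an F1 hybrid, and CAST/EiJ bases may differ from those shown.
Phox2a promoter, chr7:101817821-101818080, plus strand: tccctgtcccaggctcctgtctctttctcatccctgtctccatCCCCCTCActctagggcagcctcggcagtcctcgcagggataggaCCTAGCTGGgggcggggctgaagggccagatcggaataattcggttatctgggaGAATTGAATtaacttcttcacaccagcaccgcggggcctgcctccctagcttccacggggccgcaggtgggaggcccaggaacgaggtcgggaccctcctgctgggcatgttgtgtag
Hand2 promoter, chr8:57320821-57320982, plus strand: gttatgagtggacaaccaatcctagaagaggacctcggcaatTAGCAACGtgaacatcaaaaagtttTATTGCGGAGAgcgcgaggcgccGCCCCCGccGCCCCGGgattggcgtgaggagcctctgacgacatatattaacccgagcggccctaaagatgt
Hand2 downstream region, chr8:57363021-57363260, plus strand: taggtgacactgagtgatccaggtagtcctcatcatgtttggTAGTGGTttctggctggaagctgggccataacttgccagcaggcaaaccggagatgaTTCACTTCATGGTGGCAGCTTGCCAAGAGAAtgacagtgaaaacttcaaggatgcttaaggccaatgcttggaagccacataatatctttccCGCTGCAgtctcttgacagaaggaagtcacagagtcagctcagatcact
Hand1 downstream region, chr11:57820081-57820280, minus strand: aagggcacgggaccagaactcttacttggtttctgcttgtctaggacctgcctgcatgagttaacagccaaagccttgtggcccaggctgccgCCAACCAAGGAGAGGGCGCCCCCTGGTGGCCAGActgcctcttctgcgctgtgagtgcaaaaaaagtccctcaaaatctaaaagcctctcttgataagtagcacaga
Gata2 upstream region, chr6:88189631-88189930, plus strand: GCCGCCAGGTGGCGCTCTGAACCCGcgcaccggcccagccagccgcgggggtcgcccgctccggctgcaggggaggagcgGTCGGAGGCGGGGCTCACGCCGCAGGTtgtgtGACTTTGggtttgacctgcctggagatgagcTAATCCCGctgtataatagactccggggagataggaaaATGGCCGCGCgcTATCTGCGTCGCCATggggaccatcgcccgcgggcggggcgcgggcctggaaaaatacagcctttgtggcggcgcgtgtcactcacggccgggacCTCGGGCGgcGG
Gata2 intronic region, chr6:88203056-88203340, plus strand: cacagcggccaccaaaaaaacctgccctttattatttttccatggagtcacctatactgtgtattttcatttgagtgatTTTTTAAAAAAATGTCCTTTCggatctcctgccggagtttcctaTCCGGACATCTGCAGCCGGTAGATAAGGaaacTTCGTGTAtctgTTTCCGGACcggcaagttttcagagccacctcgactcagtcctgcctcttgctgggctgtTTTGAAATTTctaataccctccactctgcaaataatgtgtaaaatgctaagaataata
Gata3 promoter, chr2:9879561-9879820, minus strand: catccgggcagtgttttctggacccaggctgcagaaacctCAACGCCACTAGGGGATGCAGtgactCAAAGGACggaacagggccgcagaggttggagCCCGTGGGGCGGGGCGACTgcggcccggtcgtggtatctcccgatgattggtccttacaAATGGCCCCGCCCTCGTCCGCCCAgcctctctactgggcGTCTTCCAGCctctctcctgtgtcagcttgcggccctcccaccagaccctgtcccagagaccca
Isl1 promoter, chr13:116309690-116309880, minus strand: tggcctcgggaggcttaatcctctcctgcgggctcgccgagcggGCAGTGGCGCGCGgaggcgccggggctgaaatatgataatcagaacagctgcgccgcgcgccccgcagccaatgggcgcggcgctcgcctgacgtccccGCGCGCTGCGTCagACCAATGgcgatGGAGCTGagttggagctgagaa

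Phox2a (chr7:101818313-101822726, plus strand) encodes a paired-like homeodomain factor known to switch on Dbh. Its promoter signal was 1.22 in replicate 1 and 1.34 in replicate 2, a mean of 1.28 ± 0.0879 (SD, n = 2). This was the closest match between pools among the open genes, with a log2 ratio of replicate 2 over replicate 1 of 0.14, beside a median of 0.38 over all open promoters. The merged region lay at −362 bp from the TSS. A weaker region had signals of 0.647 and 0.927, and its peak covered the TSS in replicate 2 but ended 19 bp short of it in replicate 1.

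The Phox2a promoter peak held 1 match to the homeodomain motif that PHOX2 proteins bind, searched as TAATNNAAT on both strands. The match, at chr7:101817965-101817973, lies on the strand opposite to the gene and starts at base 145 of the sequence shown, partly within its last capital stretch. Of its 9 bases, 7 lay in a footprint of replicate 2 and 0 in one of replicate 1. This motif occurred in the central 200 bp of 1.79% of all 96584 regions shared by both pools and in 2 of the 44 near the 8 genes. A GATAA match on the strand opposite to the gene lay a few bases before it, in no footprint.

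Around Phox2a, 12 peaks in each pool overlapped the gene or its flanks of 50 kb. The strongest was not its own: the promoter of Inppl1, which encodes an inositol phosphatase, reached 4.31 and 5.92 at +20.04 kb. A distal region, meaning one over 1 kb from every annotated TSS, followed at −45.4 kb with 1.39 and 1.89. Another lay at +5.04 kb with 1.20 and 1.51, where it overlaps an exon of Inppl1.

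Hand2 (chr8:57320983-57324633, plus strand) encodes a helix-loop-helix factor needed for noradrenergic differentiation. Its promoter signal was 1.27 in replicate 1 and 1.94 in replicate 2 (1.61 ± 0.475, SD, n = 2), below only Gata3 and Gata2 by the mean. The peaks of both pools cover the TSS and lie within 1 kb of an annotated TSS of Hand2os1, a noncoding gene on the other strand, so the open DNA cannot be given to either gene alone. The merged promoter region held 4 and 3 footprints, of which 4 and 1 lay in the peak of their own pool, and none of replicate 1 overlapped one of replicate 2.

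The strongest distal region near Hand2 lay at +42.2 kb. Its signal was 0.877 in replicate 1 and 1.70 in replicate 2, a log2 ratio of 0.95 that exceeded the ratio of 96.0% of shared regions. Both of the footprints of replicate 1 there overlapped one of replicate 2, and 1 match to the AP-1 motif TGANTCA, beginning at chr8:57363117, lay across a footprint edge, with 1 of its 7 bases in a footprint of replicate 1 and 4 in one of replicate 2. That motif was present in 21.1% of all shared regions and in 6 of the 44 near the 8 genes. Another region, at +7.68 kb, had signals of 0.699 and 1.18. It held 1 match to the cyclic AMP response element, TGACGTCA, in a footprint of replicate 1 only. Those letters were in the central 200 bp of 1 of the 44 regions and of 0.993% of all shared regions. Hand2 had 4 shared regions in all, and no other protein-coding gene lay within 50 kb.

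Hand1 (chr11:57828705-57832818, minus strand) encodes the paralog of HAND2, also known for its part in heart and placenta. Its promoter signal was 0.699 in replicate 1 and 1.10 in replicate 2 (0.901 ± 0.286, SD, n = 2). Its annotated TSSs are 671 bp apart. The peak of replicate 1 covered the downstream one, and that of replicate 2 ended 27 bp from it.

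Hand1 had the most shared regions of the 8 genes, 12, of which 8 were distal. That number of distal regions was at percentile 75.4 of all protein-coding genes. The strongest region in the window was again the promoter of other genes, Sap30l and 2010001A14Rik at +31.3 kb, with 5.14 and 7.15. The strongest distal region, at +12.6 kb with 1.31 and 1.75, held a single footprint in each pool, and these overlapped. The footprint contains CAGGGGGC on the strand opposite to the gene, the motif searched for INSM1, at chr11:57820163-57820170. The same letters lie inside a match to the longer motif of CTCF, the insulator protein, a motif added after the sequences were seen. CTCF matches occurred in the central 200 bp of 2 of the 44 regions near the 8 genes and of 5.19% of all regions. Of 3 INSM1 matches in the whole length of the 44 regions, all lay wholly in footprints of both pools, at this site, in another Sap30l promoter region and in the Inppl1 promoter. In the central 200 bp the motif was in 2 of the 44 regions and in 2.82% of all shared regions. How often its matches lie in footprints over all regions was not counted. Next by mean signal in the window was a distal region at −8.18 kb, with 0.825 and 1.34.

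**Figure D2:**
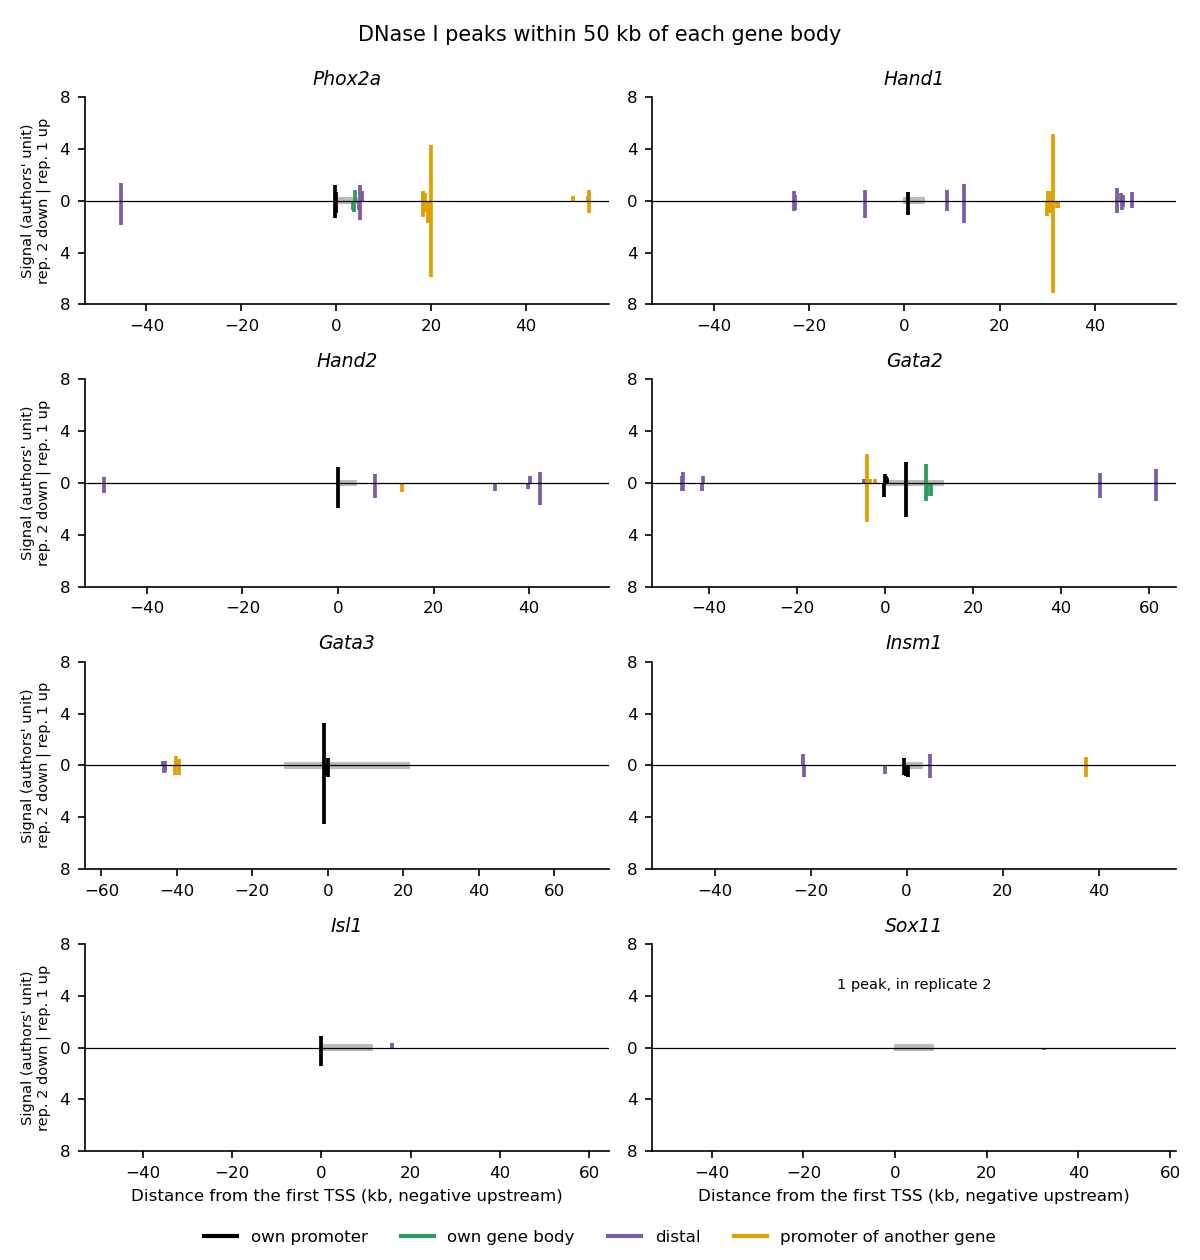
DNase I peaks from 50 kb before to 50 kb after each gene, by distance of the peak midpoint from the first TSS (kb, negative upstream), with the signal of replicate 1 drawn upwards and that of replicate 2 downwards (authors' unit). Grey bars mark the genes; the tallest lines near Phox2a, Hand1 and Gata2 are promoters of other genes, while near Gata3 the tallest is its own, and Sox11 shows a single peak, of replicate 2.

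Gata2 (chr6:88193891-88207032, plus strand) encodes a zinc finger factor shared by sympathoadrenal, blood-forming and endothelial cells. Its promoter signal was 1.62 in replicate 1 and 2.61 in replicate 2 (2.11 ± 0.697, SD, n = 2). That signal lay beside the downstream of its annotated TSSs, which are 4443 bp apart. Around the upstream TSS the shared region had 0.728 and 1.07, and the peak of replicate 2 ended 110 bp from that TSS. The stronger promoter region held a CAGCTG E-box at chr6:88198681-88198686 inside footprints of both pools.

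The strongest region near Gata2 lay at −4.11 kb, in the promoter of the noncoding gene Gm38708, with 2.21 and 3.05. It had 9 footprints in replicate 1 and 3 in replicate 2, and 3 of the former overlapped the latter. The first capital stretch of the sequence shown, in footprints of both pools, holds a match to the CTCF motif.

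Inside an intron of Gata2, at +9.31 kb, a region had signals of 1.46 and 1.39 (1.42 ± 0.0463, SD, n = 2). Unlike the promoters, it was not higher in replicate 2, with a log2 ratio of −0.07. Of its 5 footprints in replicate 1, 4 overlapped a footprint of replicate 2. The E-box CATCTG, at chr6:88203185-88203190, and GATAA, at chr6:88203200-88203204, stood on the gene's strand with 9 bases between them. GATAA lay wholly in footprints of both pools, while of the 6 bases of CATCTG all were in a footprint of replicate 2 and 1 was in one of replicate 1. A paired E-box and GATA site in an intron of Gata2 is known from blood-forming and endothelial cells, where GATA factors and helix-loop-helix partners occupy it. The same pair at the same spacing was present in the central 200 bp of 17 of the 96584 shared regions, 0.0176%, a spacing chosen after it had been seen.

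Gata3 (chr2:9857078-9890034, minus strand) encodes the factor whose loss in mice leaves embryos short of noradrenaline. It had the highest promoter signal of the 8, 3.30 in replicate 1 and 4.53 in replicate 2 (3.92 ± 0.872, SD, n = 2). Its only TSS in the annotation used, chr2:9878600, lies inside the gene record, whose 5′ end is at chr2:9890034. The peak was centred at −1091 bp from that TSS, so it overlaps only the edge of the promoter interval and lies within the gene record. With the 5′ end of the record as TSS, Gata3 did not have a promoter peak in both pools. At the TSS itself another region, which also overlaps an exon of the antisense gene Gm13256, gave 0.565 and 0.935, and with promoters of 500 bp the mean of the pools was 0.75. In the stronger region 2 of the 3 footprints of replicate 1 overlapped one of replicate 2. An E-box at chr2:9879660-9879665 lay across a footprint edge, with 2 of its 6 bases in a footprint of replicate 1 and 4 in one of replicate 2. Next by mean signal in the window was a region in the promoter of Taf3, a general transcription factor gene, at −40.4 kb with 0.713 and 0.775. Its shared distal regions reached at most 0.349 in replicate 1 and 0.560 in replicate 2.

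Isl1 (chr13:116298281-116309689, minus strand) encodes a LIM homeodomain factor of sympathetic and other neurons. Its promoter signal was 0.869 in replicate 1 and 1.43 in replicate 2 (1.15 ± 0.397, SD, n = 2). Of its annotated TSSs, which are 267 bp apart, the peak covered the upstream one, and it held 2 footprints in replicate 1 and 5 in replicate 2. Both footprints of replicate 1 overlapped one of replicate 2. No other shared region lay within 50 kb of Isl1, and the window held no other protein-coding gene. The peak had 2 GATAA matches and a CAGCTG E-box, none of which was in a footprint.

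Insm1 (chr2:146221921-146225020, plus strand) encodes a zinc finger repressor that acts in endocrine and neural differentiation. It had the lowest promoter signal of the open genes, 0.550 in replicate 1 and 0.887 in replicate 2 (0.719 ± 0.239, SD, n = 2). The values come from different peaks. Replicate 1 had a single promoter peak, at −658 bp, while replicate 2 had 3, with 0.783 at −580 bp, 0.831 at −168 bp and 0.887 at +177 bp. Accordingly the promoter held 1 footprint in replicate 1 and 10 in replicate 2. In the region that both pools shared, the signals were 0.550 and 0.783.

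The strongest regions near Insm1 were distal and nearly equal in both pools. At +4.82 kb the signals were 0.869 and 0.943, and at −21.5 kb they were 0.869 and 0.919. The latter held 3 GATAA matches, of which the one at chr2:146200450-146200454 lay wholly in footprints of both pools and the others overlapped a footprint of replicate 2 in part. The promoter of A930019D19Rik, annotated as an antisense noncoding gene, at +37.4 kb, gave 0.639 and 0.935.

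Sox11 (chr12:27334264-27342574, minus strand) encodes an SRY-related factor of immature neural and sympathetic cells. It had no promoter peak and no footprint within 50 kb in either pool. The nearest peak of replicate 1 was 77785 bp from its TSS and 69475 bp from the gene. Replicate 2 had 1 peak in the window, 62 bp wide with a signal of 0.152, at +32.5 kb. The authors' deposited table of false discovery rates (FDR) for the cutting rate lists only bases with an FDR under 0.05, and it listed none at the Sox11 promoter in either pool. In the wider window it listed none in replicate 1 and 117 bp in replicate 2, with a lowest FDR of 0.0146. Open chromatin was thus not called at the Sox11 promoter in either pool, and the depth of the libraries is unknown.

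The Sox11 promoter was CpG-dense. The 250 bases upstream of its RefSeq start (GRCm38.p6, chr12:27342719-27342968, minus strand) are shown with their 17 CpGs in capitals, since most promoters with many CpGs were open.
Sox11 upstream: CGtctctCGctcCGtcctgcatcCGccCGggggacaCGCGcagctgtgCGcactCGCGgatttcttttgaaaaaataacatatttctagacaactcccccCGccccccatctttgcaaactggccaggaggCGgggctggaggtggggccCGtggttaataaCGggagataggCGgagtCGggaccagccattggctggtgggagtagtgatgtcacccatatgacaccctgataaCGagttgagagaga

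Within 1 kb of its first TSS, Sox11 had 216 CpGs and a CpG observed over expected ratio of 0.967, at percentile 99.3 of all genes. Insm1 had 240 and 0.950. By a ratio of at least 0.6 and a GC content of at least 50%, 6 of the 8 promoters were CpG-rich, as were 30.6% of all; Phox2a and Hand1 were the exceptions, at 0.542 and 0.423. Of all CpG-rich promoters, 93.8% had a peak in both pools, and Sox11 was 1 of 418 that did not. Open CpG-rich promoters had a median signal of 4.42. Among them the 5 open CpG-rich genes of this lineage stood at percentiles 45.0 for Gata3, 22.7 for Gata2, 16.2 for Hand2, 9.67 for Isl1 and 4.95 for Insm1. CpG content was taken at the first TSS, while the signal is that of the strongest peak at any TSS. For Gata2 that peak lies at the downstream TSS, and the region at its first TSS had a mean of 0.900. All 5 signals lay below the median of open CpG-rich promoters, with that of Gata3 the nearest to it.

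**Figure D3:**
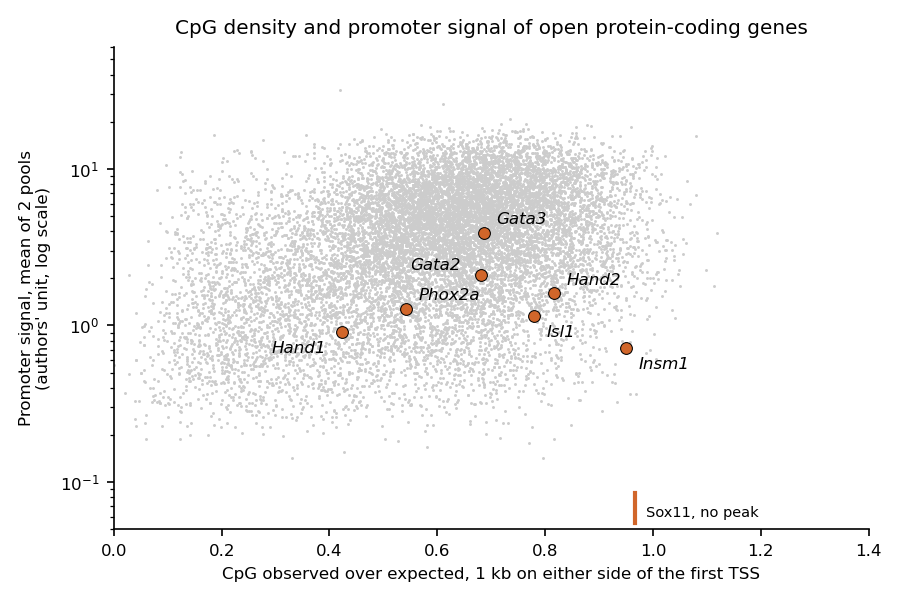
CpG observed over expected ratio within 1 kb of the first TSS (x axis) against promoter signal, mean of both pools (authors' unit, log scale), for protein-coding genes open in both pools (grey) and the lineage factor genes (orange). Insm1 combines a ratio of 0.950 with a signal of 0.719, and a tick marks the ratio of Sox11, 0.967, which has no peak. The signal of Gata2 is that at its downstream TSS.

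Cutting at the promoters was also read from the FDR table. The number of promoter bases with an FDR under 0.05 over the 8 genes had medians of 324 and 556 in the 2 pools, beside 489 and 670 over all protein-coding genes. Gata2 had 1275 in replicate 1 and 441 in replicate 2, and was the only gene of the 8 with fewer in replicate 2. Insm1 had 212 and 964. At an FDR of 0.001 or lower Insm1 had 0 bases in replicate 1 and 262 in replicate 2.

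Replicate 2 was the higher pool at all 7 open promoters. Its list was also longer, 146307 peaks against 117371, and across all shared regions its signal was higher by a median log2 ratio of 0.35 (quartiles 0.12 and 0.57). Over the 7 promoters the median ratio was 0.66, ranging from 0.14 for Phox2a to 0.72 for Isl1. Of these 7, 6 lay above the median of 0.38 over all open promoters. For Insm1 the promoter ratio of 0.69 sets different peaks against each other, and in the shared region it was 0.51.

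The ratio was then read in other gene lists, as a description chosen after the members' values were seen. Promoters of 23 chromaffin effector genes had a median of 0.44, with 16 above the median of all genes. The 5 chromaffin marker genes with a peak in both pools, all of which are also in the effector list, were all above it. Of 7 cortex markers, 2 were above it, with a median of 0.26. Summed promoter signal over these 5 chromaffin markers was 12.2 in replicate 1 and 17.7 in replicate 2, and over the 7 cortex markers it was 28.2 and 32.5. A different share of medulla in the pools was not tested. By class of region, 9 of 10 regions in the genes' own promoters were above the median ratio of all shared regions, as were 8 of 11 in promoters of other genes and 9 of 23 in gene bodies or distal DNA.

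**Figure D4:**
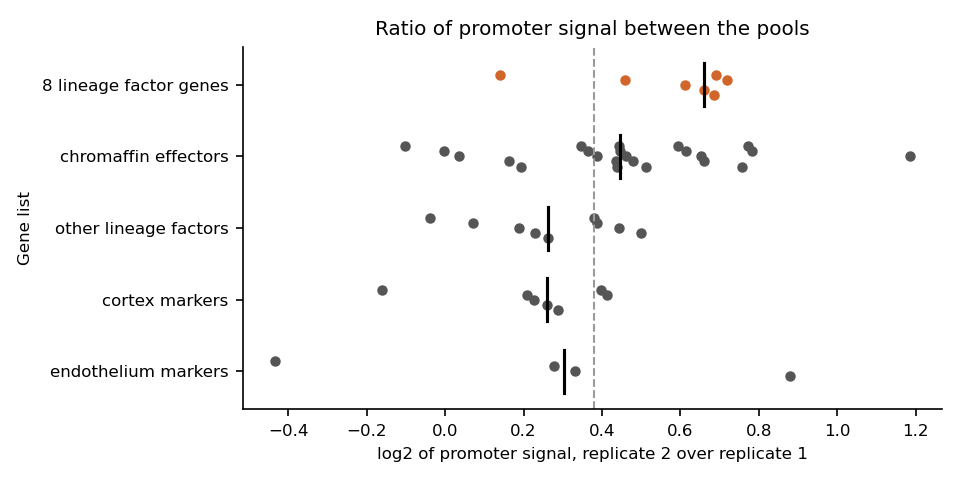
Log2 ratio of promoter signal, replicate 2 over replicate 1, with 1 point per gene open in both pools, black bars at list medians and a dashed line at the median of all open promoters (0.38). The lineage factor genes run from 0.14 to 0.72 with a median of 0.66, and the cortex markers have a median of 0.26.

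The effector genes are those that carry out the work of the chromaffin cell, in catecholamine synthesis, storage and release. Of 26 such genes, 23 were open at the promoter in both pools (88.5%), beside 61.9% of all protein-coding genes. Pnmt, the adrenaline-forming enzyme, and the nicotinic receptor genes Chrna3 and Chrnb4 had a promoter peak in replicate 2 only. The median promoter signal was 0.899 in replicate 1 and 1.35 in replicate 2. Slc18a1, the vesicular monoamine transporter, was highest at 5.61 and 8.59, followed by the granin Chgb at 2.46 and 3.33, Cyb561 at 2.12 and 2.73, and Scg2 at 1.83 and 2.61. Lowest were the opioid precursor Penk at 0.245 and 0.312, Ddc at 0.409 and 0.408, Cartpt at 0.446 and 0.416 and Gal at 0.632 and 0.648.

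A list of 12 other factor genes was also read, and its genes are not all particular to this lineage. Which cells of the gland gave their signals was not tested. The highest promoter signals were those of 4 genes: Hif1a at 7.25 and 8.27, Sox4, a relative of Sox11, at 6.43 and 7.71, Gata6 at 4.79 and 6.23 and Epas1 at 4.46 and 5.23. Eya1 at 0.639 and 0.672, Tbx20 at 1.11 and 1.45 and Rest at 1.28 and 1.81 were at the low end. Tfap2b had a peak in replicate 2 only, and Hmx1 had none. Of the GATA relatives, Gata4 had a weak peak, 0.580 and 0.664, and neither Gata1 nor Gata5 had one.

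Other cells of the gland also use some of these factors. The counts below stand beside 61.9% of all protein-coding genes with a promoter peak in both pools. Of 6 endothelium markers, 4 had a promoter peak in both pools (66.7%), near that share, with signals over these 4 summing to 2.74 and 3.03. Tek had one in replicate 2 only and Pecam1 had none. Of 6 T and innate lymphoid cell markers, which bear on Gata3, only Lck had one in both pools. Thy1 had one in replicate 2 only, with a signal of 0.464, and Cd3e, Cd3g, Cd4 and Il7r had none. Of 5 mast and erythroid markers only Kit had one, and Gata1, Klf1, Cpa3 and Hba-a1 had none. The part of these cells in the signal of Gata2 and Gata3 was not tested.

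Open regions around the genes were then counted. The median gene of the 8 had 5 shared regions and 2.5 shared distal regions within 50 kb. The medians were 9 and 5 over all protein-coding genes and 9 and 6.5 over the effector genes. The interval is the gene body plus 50 kb on either side, so it grows with gene length. These 8 genes were 3.1 to 33.0 kb long, and length was not matched between the lists. The 44 regions ran up to a mean signal of 6.15, at the Sap30l promoter. Medians of the mean of both pools were 1.03 in the genes' own promoters, 0.889 in promoters of other genes and 0.894 elsewhere, beside 0.926 over all shared regions. Within 50 kb the 8 genes had 123 footprints in replicate 1 and 154 in replicate 2. Of these, 95.1% and 92.2% lay in peaks, beside 90.6% and 89.5% of all footprints. Of the same 123 and 154, in peaks or not, 45.5% and 31.8% overlapped a footprint of the other pool, beside 51.1% and 42.6% of all footprints.

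Motifs that these factors are known to bind were counted in the same regions. In the central 200 bp, GATAA was found in 12 of 44 regions and in 21.5% of all shared regions. Any E-box, CANNTG, was found in 27 of 44 and in 65.3% of all. Of its subtypes CAGCTG was in 10 of 44 against 15.7%, and CATCTG in 3 of 44 against 16.2%. The ISL1 motif CTAATG was in 5 of 44 against 6.32%, the SOX motif ACAAT in 10 of 44 against 21.6%, and the motif CAAGGTCA of the cortex factor NR5A1 in 1 of 44 against 5.82%. Both subtypes are counted again under any E-box. The motif of the neuronal gene repressor REST was in none of the 44 and in 0.102% of all.

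In the 300 bp from 250 bp before to 50 bp after the first TSS, GATAA was in 4 of the 8 promoters, those of Phox2a, Hand2, Isl1 and Sox11, and in 22.9% of all promoters. CATCTG was in 3, those of Hand1, Hand2 and Insm1, against 14.6%. No PHOX2 motif was in these windows, beside 2.61% of all promoters, and the Phox2a match lies further upstream.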

How the data were processed

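DNase-seq of the adrenal gland had been deposited for 2 pools, each with 2 peak lists, 1 list of footprints and 1 table of FDR values on mm10, per the readme texts and the labels. Peaks and the FDR table were made from the alignments of each library, so nothing was pooled across replicates. Not given in the sources used here are the aligner, the callers of peaks and footprints, and their versions and settings. Per the file headers and values, the authors' peaks carry a signal that is never negative, with an unstated scaling. Every deposited signal was a whole multiple of 0.00743 in replicate 1 and 0.00799 in replicate 2, within 0.05 of a step for 100% of values, and a promoter peak of Insm1 stood for 74 and 111 steps and that of Gata3 for 444 and 567. What 1 step counts is not stated, so depth is unknown and no intervals are given. The deposited FDR is a q-value, a p-value adjusted by the authors, and the other columns of peaks and footprints hold constants (0.01 for each footprint, a deposited score that was not used).

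The longer peak list of each pool was used. It holds neighbours that overlap, 1396 pairs in replicate 1 and 2115 in replicate 2. Peaks of both pools were merged, and a shared region holds a peak of each. Overlaps needed 1 bp. Genes and 77161 TSSs were those of GENCODE M21 basic on 21 chromosomes, and sequence was read from GRCm38.p6, whose chromosomes hold all peaks. RefSeq promoters were matched for 6 of the 8 genes. Percentiles are ranks among protein-coding genes open in both pools, or among all genes or shared regions where stated. The counting was tested on simulated data. With 1 group there was no contrast and no test, and the spread is that of 2 libraries. All 8 genes are named, with the 3 strongest shared regions near each, and the 4 highest and 4 lowest genes of the context lists, of which some genes, and 1 list of markers, are not reported here. The genes, lists and motifs were chosen with earlier results of these data known, and the E-box to GATA spacing, the CTCF motif, the ratio between pools and the CpG comparison after the values were seen. Alternatives were the shorter list, other promoter and window sizes, midpoints, the top 50% of peaks, equal peak numbers, the gene's own 5′ end as TSS, summed peaks and each pool alone. Python 3.11.15, numpy 2.4.6, pandas 2.3.3 and matplotlib 3.10.9 were used.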

Additional observations from a re-analysis of the deposited data

How the results depend on the processing

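Of the 8 genes, 7 kept a promoter peak in both pools with promoters of 2 kb, with midpoints, with equal peak numbers and in each pool alone. The count was 6 with the shorter list, with promoters of 500 bp and with the top 50% of peaks, each without Insm1, and 6 with the TSS of the gene record only, without Gata3. Promoter footprints were in 6 genes at 500 bp, and in 5 where those of both pools had to overlap, without Hand2 and Gata3. For these settings the share of all protein-coding genes was not counted, except for peaks in each pool alone. The median number of shared regions, 5, became 3 with the shorter list, 2 at 20 kb, 6.5 at 100 kb and 2.5 with the top 50%, and 5.5 to 7.5 in single pools. For shared distal regions, 2.5, these were 2, 1, 4 and 2, and 3 to 3.5 in single pools. The median promoter signal, 1.28, was 1.61 with summed peaks, 1.44 with the shorter list, and 1.22 to 1.43 in single pools. Chromaffin effector genes with a peak in both pools went from 23 to 18 with the shorter list, for which the share of all genes was likewise not counted. Counts that follow window size change by construction, and the cause of the other changes was not tested. No paired analysis was possible because the labels give only 1 group. Limits: 2 libraries of 1 group with the same donor identifier, bulk tissue, unknown depth, reference bases for a hybrid strain, and footprints of which 45.5% and 31.8% near these genes overlapped one of the other pool.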
